A study of Mus musculus with 8 samples.

Results

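The BCL2 family of apoptosis regulators was followed in RNA-seq libraries of mouse muscle stem cells, freshly sorted or kept in culture. The members were 10 genes chosen by symbol, Bcl2, Bcl2l1, Mcl1, Bax, Bak1, Bid, Bad, Bcl2l11, Bbc3 and Pmaip1. All 10 were found, each on its own line, among the 45706 lines of genes in the deposited table. All groups came from wild-type C57BL/6 female mice aged 8 to 12 weeks, and no group carried a transgene or a drug. Hindlimb cells were sorted as positive for α7-integrin and CD34 and negative for CD45, Sca1, CD31 and CD11b. The 5 fresh libraries were made from cells straight after the sort. The 3 cultured libraries were made from such cells after 48 h on a hydrogel of 12 kPa, and the medium that the labels give held 20% fetal bovine serum. Fresh replicates 1 to 3 were sequenced apart (run 1), while 1 lane carried fresh replicates 4 and 5 together with all cultured libraries (run 2). The sources used here do not say how many animals or cultures stand behind each library, so p-values measure only how these samples vary, and that variation may be technical.

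Proteins of the BCL2 family decide whether the outer mitochondrial membrane is opened during apoptosis. The effectors BAX and BAK form the pores through which cytochrome c escapes, pro-survival proteins such as BCL2, BCL-XL and MCL1 hold them in check, and BH3-only proteins such as BIM, PUMA and NOXA start death by binding the pro-survival proteins or the effectors. Muscle stem cells rest outside the cell cycle in the animal and enter it in culture. Gene-level counts do not separate splice forms, and Bcl2l1 makes a long pro-survival and a short pro-death form.

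Total counts lay between 13919440 and 20068154 per library. Genes with a count numbered 32710 to 34689 in run-1 fresh, 20480 and 20898 in run-2 fresh and 15415 to 17852 in cultured libraries, and mitochondrial ribosomal RNA took 5.25% to 10.52% of counts in run-1 fresh, 23.18% and 26.49% in run-2 fresh and 11.1% to 18.38% in cultured libraries. Within run 2 both measures separate fresh from cultured libraries, and their part in the changes below was not tested. CPM are counts scaled to a library of fixed size after TMM scaling. Muscle stem cell markers (9, with Pax7 and Myf5) summed to 5339 to 5796 CPM in fresh and 1052 to 1181 CPM in cultured libraries. Of these 9 markers 7 were lower in culture, and none was at 0 over the cultured libraries. Summed markers of other cell types were lower in culture too, except those of muscle fibres. The sum of 10 pericyte and smooth muscle markers was 849 in fresh replicate 1, 2067 to 3315 in the other fresh libraries and 52.4 to 157 in culture, with 8 of 10 lower and Abcc9 and Kcnj8 at 0 in every cultured library. For 8 fibro-adipogenic markers the sums were 895 to 1315 and 9.94 to 20.9, with 6 lower and Ly6a and Pi16 at 0 in culture. The 10 endothelial markers summed to 90.5 to 130.5 and 1.75 to 47.0 (3 of 7 tested lower, Kdr, Tie1, Cldn5 and Egfl7 at 0), and the 10 blood markers to 25.8 to 74.1 and 0.255 to 5.92 (2 of 6 tested lower, Adgre1, Cd79a, Lyz2, Tyrobp and Cd52 at 0). Schwann markers summed to 634 to 1219.5 and 413 to 587, with 7 of 8 lower and Sox10, S100b and Cdh19 at 0, and muscle fibre markers to 39.8 to 49.6 and 12.7 to 79.3, with 3 of 10 lower and Myh2 at 0. In these bulk samples, fewer cells of a type and less RNA per cell cannot be told apart. The part of other cells' RNA in the changes below was not tested. Mcl1, Bcl2 and Bax in fresh replicate 1, where the pericyte, fibro-adipogenic, blood and Schwann sums were lowest among fresh libraries, lay within the range of the other fresh libraries. That is 1 library set against ranges over both runs, so no conclusion is drawn from it.

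The pro-survival transcripts Bcl2 and Mcl1 fell in culture and the effector Bax rose. By the fitted change, which sets cultured cells against fresh cells of the same run, Bcl2 was 6.54-fold and Mcl1 4.94-fold lower in cultured than in fresh cells, while Bax was 13.8-fold higher. By the quasi-likelihood test of edgeR, with sequencing run as a term and p-values adjusted after Benjamini and Hochberg, these were the 3 of 10 members that passed the 0.05 threshold, 1 higher and 2 lower. Among all 19054 tested genes 26.9% passed, 8.87% higher and 18.0% lower, so a share of 3 in 10 is close to the background. The split over all genes was 1691 higher and 3431 lower, and without scaling factors it was 2452 and 2857, with the median over all genes moving from -0.21 to 0.03; the 3 members kept their directions and calls. In 5 members every cultured value was beyond the same end of the fresh range, above it for Bax, Bak1 and Pmaip1 and below it for Bcl2 and Mcl1, against 39.9% of all tested genes (13.7% above and 26.1% below). The median log2 fold change was 0.70 over the 10 members and -0.21 over all tested genes. By role, the medians were -2.30 for the 3 pro-survival genes, 2.71 for both effectors and 0.46 for the 5 BH3-only genes, and the last group held no gene that passed.

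**Figure D1:**
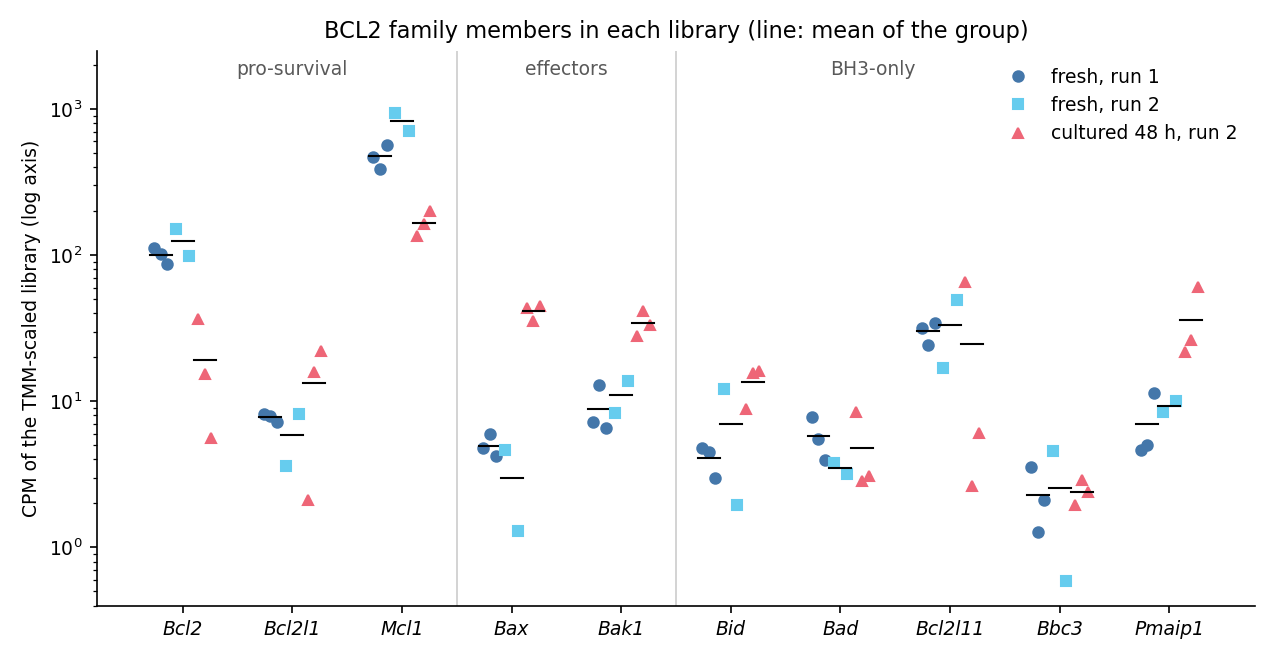
CPM of each member (log axis) in fresh libraries of run 1 (circles), fresh libraries of run 2 (squares) and cultured libraries (triangles), with a line at each mean. Cultured points of Bcl2 and Mcl1 lie below all fresh points, those of Bax, Bak1 and Pmaip1 lie above, and Bcl2l11 and Bcl2l1 spread widely in culture.

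The promoters of the 3 members that passed are shown, and no relation of their sequence to the direction of change was tested. RefSeq sequences (GRCm38.p6) were used for 9 of the 10 members, and the promoter of Pmaip1 was not used here. Each line gives the 250 bases before the RefSeq start, read 5′ to 3′ on the gene's strand. Capitals mark matches, on either strand, to the GC box GGGCGG, the CCAAT box, the cAMP response core TGACG, the AP-1 motif TGANTCA, the E-box CACGTG, the forkhead motif TGTTTAC or the p53 consensus decamer. The windows are chr1:106714291-106714540 on the minus strand for Bcl2, chr3:95658471-95658720 on the plus strand for Mcl1 and chr7:45466899-45467148 on the minus strand for Bax.

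Bcl2: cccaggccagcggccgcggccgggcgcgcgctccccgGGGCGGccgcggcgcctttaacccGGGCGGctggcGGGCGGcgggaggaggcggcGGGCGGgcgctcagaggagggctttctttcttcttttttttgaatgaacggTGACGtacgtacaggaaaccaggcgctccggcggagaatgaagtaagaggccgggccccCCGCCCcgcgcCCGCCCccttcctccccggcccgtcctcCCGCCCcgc
Mcl1: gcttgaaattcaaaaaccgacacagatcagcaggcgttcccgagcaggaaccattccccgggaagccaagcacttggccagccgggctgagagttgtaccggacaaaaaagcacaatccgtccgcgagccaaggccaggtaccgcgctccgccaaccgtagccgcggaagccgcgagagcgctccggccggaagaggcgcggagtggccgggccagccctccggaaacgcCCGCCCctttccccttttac
Bax: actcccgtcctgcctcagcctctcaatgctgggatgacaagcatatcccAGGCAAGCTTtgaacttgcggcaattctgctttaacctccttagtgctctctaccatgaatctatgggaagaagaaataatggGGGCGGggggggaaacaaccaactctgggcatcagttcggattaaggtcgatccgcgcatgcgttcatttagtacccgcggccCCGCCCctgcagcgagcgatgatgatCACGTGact

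Bcl2 held 7 GC boxes and 1 TGACG at position -107 from the start, in a window of 74.8% G and C. Mcl1 held 1 GC box, at -20, and none of the other motifs. Bax held 2 GC boxes, the E-box CACGTG at -9 and a p53 decamer match at -201. Of 32851 RefSeq promoter windows of this length, 32.7% held a GC box, 17.8% TGACG, 6.02% CACGTG and 7.13% the p53 decamer, while CCAAT was in 33.8%, TGANTCA in 6.75% and TGTTTAC in 3.17%. No overlap between motifs occurred in these 3 windows. The matches are letters in the reference genome, not sites shown to be bound.

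MCL1 is a short-lived pro-survival protein that restrains BAK and binds most BH3-only proteins. Its gene (ENSMUSG00000038612) lies on chromosome 3, 95658788 to 95663176, plus strand, in the GENCODE M21 annotation of mm10. Mcl1 stood at 466, 391, 563, 933 and 711 CPM in fresh replicates 1 to 5 and at 136, 162 and 201 CPM in cultured replicates 1 to 3. Every cultured library was below every fresh one, and the run-2 fresh libraries were the highest. The mean fell from 613 ± 215 to 166 ± 32.2 CPM (SD, n = 5 and 3), which is -2.30 ± 0.26 (SE) on the log2 scale (adjusted p = 0.000650). The change was smaller, at -1.44, with only run 1 as the fresh group (adjusted p = 0.00434). Without any 1 library it stayed between -2.47 and -2.04 with adjusted p of at most 0.0106.

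BCL2, the founding member, sits in the mitochondrial and endoplasmic reticulum membranes and binds BAX and BIM. Bcl2 (ENSMUSG00000057329; chromosome 1, 106538178 to 106714274, minus strand) was measured at 111, 102, 87.3, 151 and 99.0 CPM in fresh replicates 1 to 5. In cultured replicates 1 to 3 it was at 36.5, 15.3 and 5.61 CPM. The groups did not overlap, but the cultured libraries differed among themselves by 6.51-fold. The mean fell from 110.2 ± 24.4 to 19.1 ± 15.8 CPM (SD, n = 5 and 3), a log2 fold change of -2.71 ± 0.63 (adjusted p = 0.0133). The call was lost without fresh replicate 4 (-2.34, adjusted p = 0.0754) and within run 2 alone (-2.73, adjusted p = 0.0543). Without cultured replicate 1, the highest of its group, the change was -3.52 (adjusted p = 0.000965). An antisense gene, D630008O14Rik, shares 558 bases (6.09%) of the Bcl2 exons. It was at 1.44 to 4.23 CPM in fresh and 0 to 2.48 CPM in cultured libraries, far below Bcl2 in fresh cells.

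Bcl2l1, the gene of BCL-XL, did not pass the test. It was at 8.15, 7.95, 7.20, 3.60 and 8.21 CPM in the fresh libraries, and at 2.11, 15.9 and 22.0 CPM in the cultured ones. Cultured replicate 1 lay below every fresh library and the other cultured libraries lay above them. Means were 7.02 ± 1.95 and 13.3 ± 10.2 CPM (log2 fold change 1.17 ± 0.96; adjusted p = 0.407). Without 1 library the log2 fold change ranged from 0.66 (cultured replicate 3) to 1.92 (fresh replicate 5), and none of these passed. The spread in culture is wider than the difference between the means.

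BAX is a cytosolic effector that inserts into the outer mitochondrial membrane when activated. Bax (ENSMUSG00000003873; chromosome 7, 45461697 to 45466898, minus strand) had 4.79, 5.94, 4.20, 4.67 and 1.30 CPM in fresh replicates 1 to 5. It had 43.6, 35.6 and 44.8 CPM in the cultured libraries. The lowest cultured value was several times the highest fresh one, and the cultured libraries were close together. The mean rose from 4.18 ± 1.73 to 41.3 ± 5.00 CPM (SD, n = 5 and 3), a log2 fold change of 3.79 ± 0.69 (adjusted p = 0.00537). Its size depended on the run-2 fresh libraries, at 5.03 without fresh replicate 4, 3.15 without fresh replicate 5 and 3.11 against run-1 fresh libraries alone (adjusted p = 0.0114, 0.0212 and 0.00284). In GENCODE M21, 192 bases (12.2%) of the Bax exons also belong to Gm45808 on the same strand, a gene that has no line of its own in the table.

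BAK, the other effector, resides in the outer mitochondrial membrane. Bak1 was at 7.18, 13.0, 6.60, 8.28 and 13.7 CPM in fresh and at 27.9, 41.6 and 33.1 CPM in cultured libraries. All cultured values exceeded all fresh ones. Means were 9.75 ± 3.35 and 34.2 ± 6.92 CPM, a log2 fold change of 1.64 ± 0.55 that narrowly missed the threshold (adjusted p = 0.0559). It passed with DESeq2 (adjusted p = 0.00454), without a run term (0.00705), against run-1 fresh libraries alone (0.0123), without scaling factors (0.0311) and without cultured replicate 1 (0.0281). In the other edgeR settings it missed, as within run 2 alone (0.123) and without fresh replicate 4 (0.253) or 5 (0.115). Against run-1 fresh libraries alone, culture cannot be told apart from run. Ggnbp1, on the opposite strand, shares 614 bases (25.5%) of the Bak1 exons, and the sources used here do not say whether counting used strand. Ggnbp1 was at 8.28 to 14.4 CPM in fresh and 1.34 to 11.6 CPM in cultured libraries (log2 fold change -0.60; adjusted p = 0.659).

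**Figure D2:**
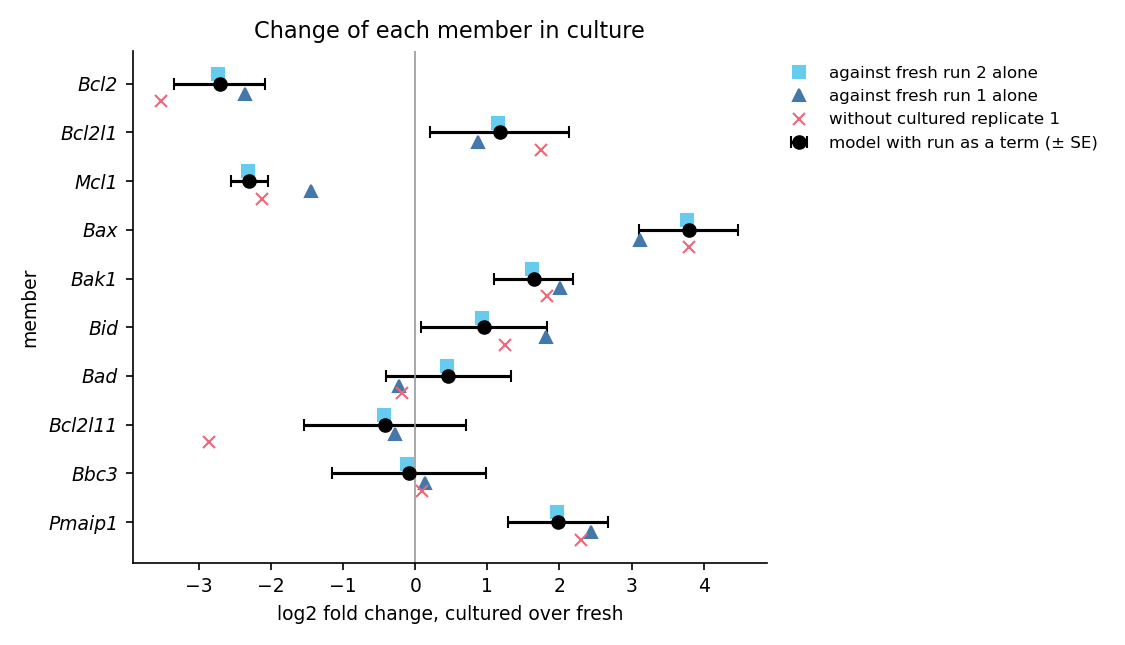
Log2 fold change of each member, cultured over fresh, from the model with run as a term (black, ± SE), against fresh libraries of either run alone, and without cultured replicate 1. Bcl2 and Mcl1 are below 0 and Bax, Bak1 and Pmaip1 above 0 in each of these fits, while Bcl2l11 moves from -0.42 to -2.86 when cultured replicate 1 is left out.

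Of the 5 BH3-only members, none passed the test in edgeR. In the edgeR fit across all genes 1 had an unadjusted p under 0.05, Pmaip1, and DESeq2 called the same gene. Pmaip1 encodes NOXA, which binds MCL1 and promotes its degradation. It was at 4.67, 5.01, 11.4, 8.47 and 9.97 CPM in fresh libraries. In culture it was at 21.9, 26.1 and 60.7 CPM, above every fresh library, with cultured replicate 3 the highest. Means were 7.90 ± 2.98 and 36.3 ± 21.3 CPM (log2 fold change 1.98 ± 0.69; adjusted p = 0.0624). It passed with DESeq2 (adjusted p = 0.0121), without a run term (0.00654), against run-1 fresh libraries alone (0.0192), without scaling factors (0.0352) and without cultured replicate 1 (0.0217). In the other edgeR settings Pmaip1 missed, as within run 2 alone (0.118) and without fresh replicate 4 (0.235) or 5 (0.202).

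Bcl2l11 encodes BIM, a strong activator that binds all pro-survival members. It was the BH3-only member with the widest spread in culture. Fresh libraries held 31.9, 24.3, 34.3, 17.0 and 49.3 CPM, and cultured libraries 65.4, 2.62 and 6.06 CPM. Cultured replicate 1 was above every fresh library and the other cultured libraries were below every one. Exact 95% Poisson intervals of the read counts were 61.9 to 69.2, 1.95 to 3.45 and 5.02 to 7.26 CPM (1242, 51 and 119 counts). These intervals did not overlap, but they treat reads as independent molecules, which amplified reads are not. The part of sampling of the input RNA in this gap was not tested. Means were 31.4 ± 12.1 and 24.7 ± 35.3 CPM (log2 fold change -0.42 ± 1.12; adjusted p = 0.833). Without cultured replicate 1 the log2 fold change was -2.86 (adjusted p = 0.00888). This library also had the fewest genes with a count, 15415, against 17852 and 17806 in the other cultured libraries. The part of that difference in the Bcl2l11 value was not tested.

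Bid, which links death receptors to mitochondria once cleaved by caspase-8, was at 4.79, 4.47, 3.00, 12.1 and 1.95 CPM in fresh libraries and 8.91, 15.6 and 16.2 CPM in cultured ones. Only fresh replicate 4 overlapped the cultured range. The log2 fold change was 0.95 ± 0.87 (adjusted p = 0.461). It ranged from 0.19 without fresh replicate 5 to 2.85 without fresh replicate 4. It missed the threshold in both cases. Its exons share 628 bases (17.7%) with Bcl2l13 on the opposite strand, which was more abundant (26.7 to 64.3 CPM in fresh and 13.9 to 50.4 CPM in cultured libraries), so its reads could enter the count of Bid. Bad, a BH3-only protein silenced by growth factor signalling, ranged from 3.19 to 7.81 CPM in fresh libraries and was at 8.48, 2.83 and 3.06 CPM in cultured ones. Its groups overlapped, and it averaged 4.86 ± 1.86 and 4.79 ± 3.20 CPM (0.46 ± 0.87; adjusted p = 0.754). The exons of Bad share 524 bases (20.5%) with Gpr137 on the opposite strand. Gpr137 was at 1.65 to 5.24 CPM in fresh and 0 to 2.65 CPM in cultured libraries. Bbc3, the gene of PUMA, was at 3.53, 1.27, 2.10, 4.55 and 0.586 CPM in fresh and 1.95, 2.88 and 2.40 CPM in cultured libraries. Its cultured values lay inside the fresh range, and it averaged 2.41 ± 1.62 and 2.41 ± 0.466 CPM (-0.09 ± 1.07; adjusted p = 0.992), the lowest level of the 10, with 9 counts in fresh replicate 5. At this depth and spread, standard errors near 1 on the log2 scale leave changes of either sign possible for Bad and Bbc3.

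Per kilobase of exon, Mcl1 stood first in both states. In fresh cells its level was 179 ± 63.0 CPM per kb, followed by Bcl2 at 12.0 ± 2.67. The range over libraries of Mcl1 (114 to 273 CPM per kb) did not meet that of Bcl2 (9.54 to 16.5), and Bcl2 did not meet the genes ranked after it. The other 8 lay between 4.05 ± 1.39 for Bak1 and 1.13 ± 0.765 for Bbc3, each overlapping its neighbour in rank. In culture the order was Mcl1 (48.7 ± 9.43 CPM per kb), Bax (26.2 ± 3.17), Bak1 (14.2 ± 2.87) and Pmaip1 (13.3 ± 7.80), of which only Bak1 and Pmaip1 overlapped. Bax went from rank 6 to rank 2 and Bcl2 from rank 2 to rank 8, at 2.09 ± 1.73 CPM per kb. Bid, next in rank, lay below Pmaip1 in every cultured library, and the 6 genes from Bid to Bbc3 overlapped with their neighbours in rank. Bcl2l11 in cultured replicate 1, at 8.15 CPM per kb, was above the lowest value of Pmaip1, 8.02. Lengths are those of all annotated exons of a gene, and the order assumes even coverage along them.

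Ratios of counts within a library do not depend on its scaling. The log2 ratio of Bax to Bcl2 was -4.54, -4.11, -4.38, -5.02 and -6.25 in fresh replicates 1 to 5 and 0.26, 1.22 and 3.00 in cultured replicates 1 to 3. Bax counts were thus below Bcl2 counts in every fresh library and above them in every cultured one, a difference of 6.35 between the means. For Bak1 over Mcl1 the fresh libraries lay between -6.82 and -4.92 and the cultured ones between -2.60 and -1.96. For Bax over Bcl2l1, fresh libraries spanned -2.66 to 0.38 and cultured libraries 1.03 to 4.37. The ratio of Bcl2l11 to Mcl1 overlapped between the states, with -5.78 to -3.85 in fresh libraries and -1.06, -5.95 and -5.05 in cultured replicates 1 to 3. That of Bcl2l11 to Bcl2 did too, at -3.15 to -1.01 and at 0.84, -2.54 and 0.11. No test was made of the ratios, since their members were chosen with results known.

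**Figure D3:**
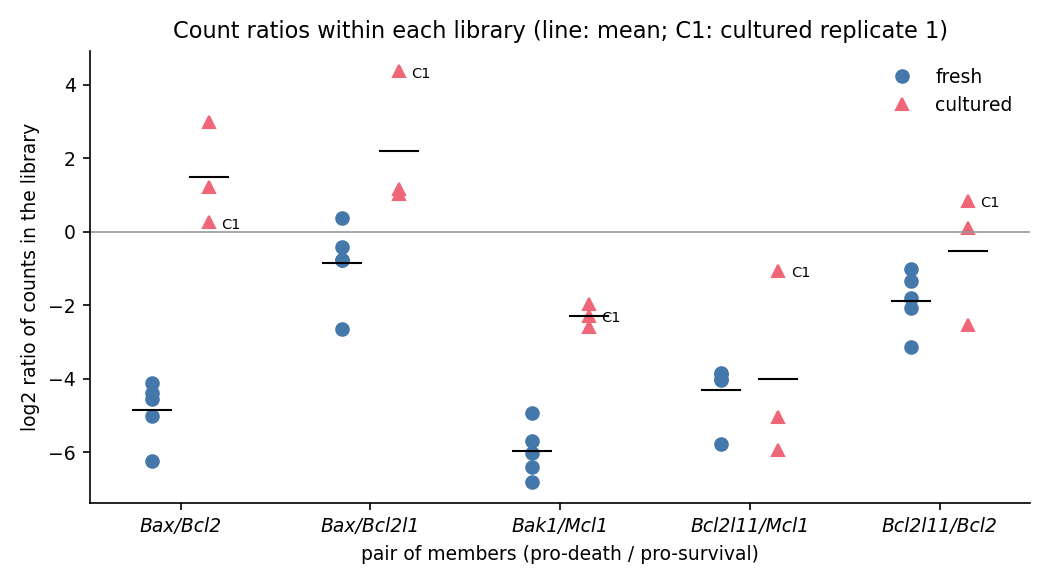
Log2 ratio of counts of a pro-death to a pro-survival member in each fresh (circles) and cultured (triangles) library, with the mean as a line and cultured replicate 1 marked C1. The cultured points lie above all fresh points for Bax/Bcl2, Bax/Bcl2l1 and Bak1/Mcl1, and overlap them for both ratios of Bcl2l11.

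Fresh cells of the 2 runs were compared by the run coefficient of the same model, which shows how far members moved without culture. None of the 10 passed, against 0.189% of all tested genes (0.0945% higher and 0.0945% lower). In the edgeR fit across all genes 1 had an unadjusted p under 0.05, Mcl1, and DESeq2 called none. Mcl1 had the smallest p, with a log2 fold change of 0.80 ± 0.26 from run 1 to run 2 (adjusted p = 0.145). Bid stood at 0.78 ± 0.84, Bax at -0.73 ± 0.60 (-1.91 and -0.04 when fresh replicate 4 or 5 was left out) and Bad at -0.72 ± 0.88, and the other 6 lay between -0.39 and 0.39.

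Among 18 further genes of the family or named after it, 11 passed the filter on low counts. Of these, 2 rose and 2 fell, against 8.87% and 18.0% of all tested genes. Their median was 0.40, also with Bmf and Bcl2l15 at their bounds. Bmf and Bcl2l15 are named after their values were seen. Bmf, a BH3-only gene whose protein is held on the cytoskeleton, was at 18.6, 21.6, 18.4, 4.55 and 16.4 CPM in fresh libraries and had no count in any cultured one. With the cultured group set to the 3 counts that a total of 0 allows, its level was at least 202-fold lower than in run-2 fresh libraries (adjusted p = 0.00186). The bound was at least 316-fold without fresh replicate 4 and 88.0-fold without fresh replicate 5. Bcl2l15 was at 0.513, 0.868 and 1.32 CPM in fresh replicates 1 to 3, without a count in fresh replicates 4 and 5, and at 12.9, 2.52 and 2.80 CPM in the cultured replicates. It passed in the fit with a run term (adjusted p = 0.00945), and its size depended on the fresh libraries used. Set against run-2 fresh cells alone, at the 3 counts that a total of 0 allows, it was at least 63.0-fold higher (at least 27.7-fold without cultured replicate 1). Against run-1 fresh libraries the log2 fold change was 2.76 (adjusted p = 0.0713) and without a run term 3.47 (0.0629), neither of which passed. Bnip2 rose from 67.2 ± 7.22 to 132 ± 20.2 CPM (1.08 ± 0.26; adjusted p = 0.0156), and Bnip3l, a receptor for the removal of mitochondria, fell from 55.9 ± 18.5 to 29.2 ± 3.74 CPM (-1.33 ± 0.33; adjusted p = 0.0175). Neither passed without fresh replicate 4 (adjusted p = 0.0909 and 0.0686) or within run 2 alone (0.0617 and 0.0520), and Bnip3l did not without fresh replicate 5 (0.103), without scaling factors (0.0840), without a run term (0.0563) or against run-1 fresh libraries (0.269). The pro-survival gene Bcl2l2 was at a mean of 41.5 CPM in fresh and 16.2 CPM in cultured libraries (adjusted p = 0.481) and the effector-like Bok at 18.8 and 23.0 CPM (adjusted p = 0.934); paired means from here on are given in that order. The 7 genes left out by the filter, which include the near-identical copies Bcl2a1a, Bcl2a1b, Bcl2a1c and Bcl2a1d, summed to at most 32 counts each over all libraries.

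In the list of 13 apoptosome and caspase genes, 3 rose and none fell (median log2 fold change 0.03). Of all tested genes, 8.87% rose and 18.0% fell. Casp8, the initiator caspase of death receptors, rose from 5.45 ± 2.42 to 28.6 ± 15.7 CPM (2.73 ± 0.80; adjusted p = 0.0347). Cycs, cytochrome c, rose from 11.9 ± 7.38 to 87.4 ± 55.4 CPM (2.15 ± 0.57; adjusted p = 0.0230). Parp1, a DNA repair enzyme cut by caspases, rose from 36.4 ± 4.33 to 111 ± 39.7 CPM (1.58 ± 0.38; adjusted p = 0.0151). These calls were lost without fresh replicate 4 (adjusted p = 0.173, 0.0908 and 0.0755), without fresh replicate 5 (0.0503, 0.131 and 0.0823; Casp8 then at 3.79) and within run 2 alone (0.0973, 0.0665 and 0.0516). Casp8 was also lost without fresh replicate 2 (0.0599), fresh replicate 3 (0.0577) or cultured replicate 2 (0.0749). The initiator Casp9 (10.5 and 1.31 CPM; adjusted p = 0.381) and the scaffold Apaf1 (18.1 and 23.7 CPM; 0.388) did not pass. Cycs has processed copies in the mouse genome, so its estimated counts are uncertain.

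Of 8 caspase inhibitors and their antagonists 2 rose and 1 fell (median -0.37), against 8.87% and 18.0% of all tested genes. Birc5, survivin, which also serves in mitosis, rose from 3.47 ± 1.73 to 36.3 ± 12.5 CPM (4.11 ± 0.72; adjusted p = 0.00471; 4.84 without fresh replicate 5). Htra2, a mitochondrial protease that antagonises inhibitors of apoptosis, rose from 8.76 ± 4.63 to 37.7 ± 11.8 CPM (3.07 ± 0.57; adjusted p = 0.00562). Birc3, the inhibitor cIAP2, fell from 221 ± 58.0 to 26.6 ± 20.3 CPM (-2.62 ± 0.51; adjusted p = 0.00661; -3.39 without cultured replicate 1). Both rises were smaller against run-1 fresh libraries alone, at 3.10 for Birc5 (adjusted p = 0.00397) and 1.75 for Htra2 (0.0165). Fresh means of Htra2 were 11.6 CPM in run 1 and 4.50 CPM in run 2. With the replicate block Htra2 missed the threshold (adjusted p = 0.0947). Xiap, the direct caspase inhibitor, had a log2 fold change of -0.80 (adjusted p = 0.128). Diablo, its antagonist SMAC, was at 29.6 and 73.3 CPM (0.0576).

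Death receptors and adaptors went both ways, with 2 higher and 2 lower of 12 tested (median 0.18). Over all tested genes the shares were 8.87% and 18.0%. Tnfrsf10b, the TRAIL receptor, rose from 6.57 ± 2.81 to 47.5 ± 5.04 CPM (3.66 ± 0.51, adjusted p = 0.00165). Its rise was smaller, at 2.56, against run-1 fresh libraries alone (adjusted p = 0.00372). Ripk1, a kinase of TNF receptor signalling, fell from 234 ± 27.1 to 34.4 ± 9.10 CPM (-2.80 ± 0.28, adjusted p = 0.000404). Cflar, an inhibitor of caspase-8, rose from 156 ± 21.5 to 211 ± 27.0 CPM at the edge of the threshold (0.67 ± 0.21; adjusted p = 0.0489). It passed in 4 of 17 other settings, and its adjusted p was 0.0650 to 0.172 without any 1 library but cultured replicate 3. Tradd, the fourth gene that passed, averaged 1.47 ± 1.26 CPM in fresh cells and had 16 counts in run-2 fresh and 1 in cultured libraries (adjusted p = 0.0456, 0.333 without fresh replicate 5). It passed in 5 of the 15 other settings in which it was tested, and its log2 fold change moved from -4.43 to -2.44 without fresh replicate 5 and to -6.17 without cultured replicate 2. Fas was at 31.4 and 1.16 CPM (adjusted p = 0.0563).

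Among 13 mitochondrial partners of BAX and BAK 5 rose and none fell (median 0.58), against 8.87% and 18.0% of all tested genes. The adenine nucleotide carrier Slc25a5 rose from 67.0 ± 12.0 to 359 ± 92.7 CPM (2.59 ± 0.32; adjusted p = 0.000959). Immt, a cristae organiser, rose from 76.1 ± 14.6 to 248 ± 57.9 CPM (1.98 ± 0.30; adjusted p = 0.00234). The outer membrane channels Vdac1 (50.9 ± 24.2 to 105 ± 37.3 CPM; 2.08 ± 0.36; adjusted p = 0.00464) and Vdac2 (56.7 ± 17.8 to 97.4 ± 11.1 CPM; 1.33 ± 0.28; adjusted p = 0.00883), the latter a partner of BAK, rose too. Dnm1l, the fission dynamin, rose from a mean of 40.7 to 113 CPM (1.16 ± 0.35; adjusted p = 0.0404). Vdac1 overlapped between the groups. Against run-1 fresh libraries the adjusted p was 0.106 for Vdac1 and 0.0996 for Vdac2, without a run term 0.0756 and 0.0625, and without fresh replicate 4 it was 0.0638 for Vdac2. Dnm1l lost its call without any 1 fresh library (0.0598 to 0.153). Slc25a5 also has processed copies, so its counts are uncertain.

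Regulators that act on BH3-only genes split evenly, with 3 higher and 3 lower of 14 tested (median -0.40). Over all tested genes the shares were 8.87% and 18.0%. Trp53 is the gene of p53, a known activator of Bax, Bbc3 and Pmaip1. It rose from 136 ± 49.8 to 396 ± 74.0 CPM (2.18 ± 0.27, adjusted p = 0.00106). Fresh means of Trp53 were 168 CPM in run 1 and 87.2 CPM in run 2. Against run-1 fresh libraries alone its change was 1.30 (adjusted p = 0.00475). Mdm2, the ubiquitin ligase and target of p53, rose from 102 ± 5.27 to 889 ± 217 CPM (3.07 ± 0.28, adjusted p = 0.000253). Jun fell from 1780.3 ± 596 to 119 ± 35.1 CPM (-4.24 ± 0.39; adjusted p = 0.000271). Foxo1, a forkhead factor known to act on Bcl2l11, fell from 323 ± 31.3 to 44.4 ± 43.2 CPM (-2.94 ± 0.75; adjusted p = 0.0202; -4.00 without cultured replicate 2). Foxo1 was lost without fresh replicate 4 (adjusted p = 0.0916), fresh replicate 5 (0.0715) or cultured replicate 3 (0.0592) and within run 2 alone (0.0709). Foxo3 was at 194 and 113 CPM (0.0764).

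Of 24 genes whose products turn over, phosphorylate or tether BCL2 proteins, 7 rose and 3 fell (median 0.67). Over all tested genes the shares were 8.87% and 18.0%. Bag3, a co-chaperone that binds BCL2, fell from 615 ± 147 to 48.7 ± 14.1 CPM (-3.92 ± 0.32; adjusted p = 0.000157). Pim1, a kinase that inactivates BAD, fell from 215 ± 62.9 to 19.3 ± 21.5 CPM (-2.93 ± 0.87; adjusted p = 0.0361; -4.29 without cultured replicate 1). Btrc, a ubiquitin ligase subunit, fell from 23.4 ± 5.00 to 4.50 ± 4.10 CPM (-2.26 ± 0.73; adjusted p = 0.0499; -3.32 without cultured replicate 3). Akt1, a survival kinase, rose from 23.2 ± 7.31 to 78.1 ± 24.3 CPM (2.10 ± 0.44; adjusted p = 0.00903, 0.0636 without fresh replicate 4). The other genes that rose were Ywhag (1.98), Dynll1 (1.96), Ywhae (1.49), Ywhah (1.49), Bag1 (1.20) and Ywhab (1.03). Their adjusted p in the edgeR fit was 0.00168 to 0.0419. Pim1 lost its call without any 1 fresh library (0.0551 to 0.111) or cultured replicate 2 (0.0760), and Btrc without any 1 library but cultured replicate 3 (0.0601 to 0.251). Huwe1, the ligase that degrades MCL1, was at 1077 and 1472 CPM (adjusted p = 0.156).

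**Figure D4:**
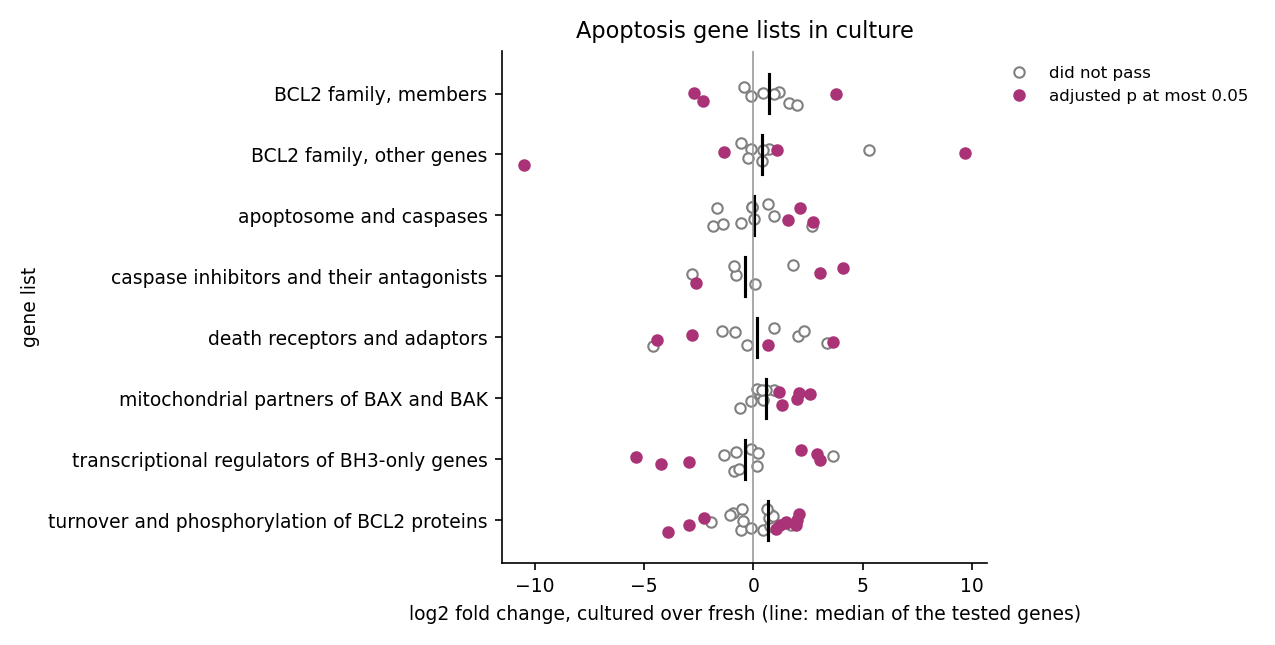
Log2 fold change, cultured over fresh, of each tested gene in 8 apoptosis lists, filled where the adjusted p passed 0.05 and with a line at each list's median. The fitted values of Bmf (-10.50), without a count in culture, and Bcl2l15 (9.71), without a count in run-2 fresh libraries, are not measures of size. The medians lie between -0.40 and 0.70.

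By Pearson correlation of log2 CPM over the 8 libraries, the genes most like Bax among 8165 compared were Ccnb1 (0.997), Zdhhc6 (0.996) and G6pdx (0.993). Those most like Bcl2 were Pik3r1 (0.992), Prelp (0.991) and Sgk1 (0.987). In all, 156 genes had a correlation of at least 0.95 with Bax and 130 with Bcl2. The 8 points share the difference between fresh and cultured cells, so these values describe similarity of pattern only.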

How the data were processed

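RNA was amplified from sorted cells with a kit for small RNA inputs and sequenced, per the labels' protocols. The authors deposited expected counts per gene, which are not normalized, and the submitters' processing notes name RSEM, STAR and mm10, without versions. The table held 45798 lines, of which 92 spike-in lines were left out. Estimated counts were rounded to whole numbers (50.1% of values above 0 were not whole). Sequencing depth limits precision through counting error, and intervals cover counting error only, since amplified reads are not independent molecules.

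Genes passing edgeR's filterByExpr (19054) were fitted with edgeR 4.0.16 in R 4.3.3 (quasi-likelihood, TMM scaling, terms for culture and run, Benjamini-Hochberg threshold 0.05). The 8 libraries entered 1 fit. Each SE is the absolute log2 fold change divided by the square root of its quasi-likelihood F statistic. A fold with no count in the cultured or the run-2 fresh libraries was bounded by a floor of 3 counts over those libraries. Levels per kb used GENCODE M21 exon lengths, and 98.8% of identifiers matched it. Alternatives used DESeq2 1.42.0, other scalings, filters and subsets.

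The members and lists were chosen with earlier results of these data known. Genes of a list were named if called, at a mean of at least 10 CPM over all libraries and among its 4 largest changes. Other called genes and those that did not pass were chosen after their values were seen. The values of 1 gene of the lists are not reported here.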

Additional observations from a re-analysis of the deposited data

Results flagged for a closer look

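In 49 sets of values over the 5 fresh libraries, 6 had an end value far from the other 4, where chance alone flags about 1 in 20. Of these, 4 were in fresh replicate 4. Bcl2l1 was lowest there at 3.60 CPM, with the next at 7.20 CPM. Bid was highest there at 12.1 CPM, with the next at 4.79 CPM. The log2 ratio of Bcl2l11 to Mcl1 was lowest there at -5.78, with the next at -4.04. Bnip2 was lowest there at 54.6 CPM, with the next at 67.9 CPM. The summed fibro-adipogenic markers were lowest in fresh replicate 1 at 895 CPM, with the next at 1221 CPM. The summed muscle fibre markers were highest in fresh replicate 2 at 49.6 CPM, with the next at 40.7 CPM.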

How the results depend on the processing

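The 5122 genes called became 2780 within run 2 alone, 2482 with a replicate block, 151 with fresh replicate 1 as the only fresh library (chosen after seeing the data) and 3337 to 6163 without 1 library. Members called were 5 with DESeq2, without scaling factors, without a run term and against run-1 fresh libraries (Bak1 and Pmaip1 added), 2 within run 2 alone, 0 with fresh replicate 1 only, and 2 to 6 without 1 library. With fresh replicate 1 only, Bcl2 was at -2.52, Mcl1 at -1.44 and Bax at 3.15, all missing the threshold, in a design with 1 library in an arm that called 151 of 20974 genes, so that these misses say nothing about stability. Within run 2 alone Bcl2 (-2.73) missed it. Under the 4 settings that added them, in the order above, Bak1 was at 1.57, 2.05, 1.81 and 2.01 and Pmaip1 at 1.91, 2.43, 2.20 and 2.44. Bad turned sign without a run term (-0.02), against run-1 fresh libraries (-0.23), with the block (-0.40) and with fresh replicate 1 only (-0.69), and Bbc3 without scaling factors (0.37), against run-1 fresh libraries (0.14) and with the block (0.17). Without 1 library the log2 fold changes ranged from -3.52 to -2.29 (Bcl2), 0.66 to 1.92 (Bcl2l1), 1.37 to 2.07 (Bak1), -0.18 to 0.71 (Bad), -2.86 to 0.51 (Bcl2l11), -0.90 to 2.08 (Bbc3) and 1.40 to 2.30 (Pmaip1), and the difference in the log2 ratio of Bcl2l11 to Mcl1 from -1.19 to 1.25. Between runs, the 36 genes called became 921 with DESeq2, 81 without a filter, 20 against a log2 fold change of 1, 806 over fresh libraries alone and 1 to 117 without 1 library. Run differences turned sign without scaling factors for Bcl2 (-0.07), Bak1 (-0.07), Bcl2l11 (-0.22) and Bbc3 (-0.26), and without 1 library ranged from -0.01 to 0.64 (Bcl2), -1.06 to 0.09 (Bcl2l1), -1.91 to -0.04 (Bax), -0.06 to 0.65 (Bak1), -1.05 to 1.60 (Bid), -0.78 to 0.72 (Bcl2l11) and -1.95 to 1.03 (Bbc3). The cause was not tested.

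Whether replicate numbers pair the samples could not be settled from these values. Same-numbered deviations correlated at only 0.03, 0.01 and 0.011. Each of the 3 fresh libraries still matched its own number best. The deviations are from the means of these same libraries, so the 3 matches are not independent, and no conclusion is drawn from them. With the replicate block, Bcl2, Mcl1 (-1.51) and Bax still passed and no other member did, with Bcl2l1 at 0.32. Run-2 fresh libraries share no replicate number with a cultured library, so they do not inform the culture term of this fit. That term sets run-1 fresh libraries against run-2 cultured libraries, and culture cannot be told apart from run in it.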

Other observations

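Foxo1 and Bcl2l11 stood in opposite order over the cultured libraries. Foxo1 was at 7.54, 91.9 and 33.8 CPM in cultured replicates 1 to 3, where Bcl2l11 was at 65.4, 2.62 and 6.06 CPM. With 3 libraries no relation can be tested, and in fresh libraries Foxo1 (284 to 365 CPM) and Bcl2l11 (17.0 to 49.3 CPM) were present together.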
